A study of Mus musculus with 6 samples.

Results

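The GATA factors *Gata1*, *Gata4* and *Gata6* were followed across 6 one-colour microarrays of mouse embryonic stem cells (mESCs), 3 of the line fSOX2-Tg and 3 of the line fS248A-Tg. Each gene was read by 1 probe of the 59729 distinct probes on the array (ASMM9PARTA027960 for *Gata1*, ASMM9PARTA028024 for *Gata4* and ASMM9PARTA029884 for *Gata6*). The genes were chosen by their intensities in the 2 lines on these same arrays, by way of the study's list of changed genes, so the line differences below are a description of the chosen genes and carry no test. Both lines came from 2TS22C mESCs, in which endogenous *Sox2* is deleted and a doxycycline-repressible *Sox2* transgene maintains the cells. Both were grown in LIF medium with 1 µg/mL doxycycline, so that a 3xFLAG-tagged *Sox2* transgene driven by the CAG promoter was the only SOX2: wild type in fSOX2-Tg, and the serine-to-alanine mutant S248A in fS248A-Tg. Puromycin-resistant colonies were expanded after transfection, and there is 1 line per transgene, so an effect of the mutation and a difference between separately derived lines cannot be told apart. The triplicates are labelled biological, and no passage or culture that ties them together is given in the sources used here.

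The change that separates the lines is carried by the oligonucleotide pair used for mutagenesis, shown here because it is the whole designed difference between them. Capitals mark the new alanine codon in the forward oligo and its reverse complement in the reverse oligo.
Sox2S248Af: ggtcGCCtccgaggccagctcca
Sox2S248Ar: cggaGGCgaccacagagcccatggag

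GATA factors are zinc-finger transcription factors named after the short DNA motif they bind, and different members specify different lineages. GATA6 and GATA4 are early regulators of primitive endoderm, the layer that goes on to form visceral and parietal endoderm, with GATA6 acting upstream of GATA4. Forced expression of either can turn mESCs into extraembryonic endoderm-like cells. GATA1 belongs to the hematopoietic branch of the family and drives erythroid and megakaryocytic genes together with FOG1, encoded by *Zfpm1*. In undifferentiated mESCs all of these programs are normally held at a low level.

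Levels are given as log2 of the processed spot intensity minus log2 of that array's 75th percentile, so that a level of 0 is the intensity that 75% of spots fall below. Because probes differ in how well they hybridise, each gene was compared with itself across arrays and the level of one gene was not set against that of another. The 75th percentile itself lay between 184 and 457 intensity units, 66.0% to 83.1% of spots were well above background, and no spot was saturated. Replicates 1 and 2 of both lines shared a slide and replicate 3 of both lines shared the other slide. On 17126 probes, 2 arrays lay nearer to the other line than to their own: the mean SD of log2 differences was 0.76 to its own line against 0.60 to the other for fSOX2-Tg replicate 2, and 0.69 against 0.61 for fS248A-Tg replicate 2. Without that replicate in both lines the differences between lines were -2.39 for *Gata1*, 1.23 for *Gata4* and 2.19 for *Gata6* (log2, fS248A-Tg minus fSOX2-Tg). None of 15 mESC marker genes was paired with a probe here, so the labelled cell type was not checked on these arrays. The array measured pooled RNA, so more cells expressing a gene and more RNA per cell cannot be told apart.

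*Gata6*, the endoderm factor, was higher in fS248A-Tg cells. Its level was 2.87, 2.48 and 1.31 on fSOX2-Tg replicates 1, 2 and 3, and 5.19, 4.64 and 3.38 on the fS248A-Tg replicates. All 3 fS248A-Tg arrays lay above all 3 fSOX2-Tg arrays, with a gap of 0.50 log2 units between the lowest of the one line and the highest of the other. The means were 2.22 ± 0.81 and 4.40 ± 0.93 (SD, n = 3 arrays each), a difference of 2.18 (limma SE 0.32) or 4.54-fold. Between arrays of the same number, which shared a slide, the rise was 4.99-fold, 4.49-fold and 4.17-fold for replicates 1, 2 and 3. On this scale these 3 log2 differences had an SD of 0.13, while the pooled SD of arrays within a line was 0.87. The gene therefore varied far more among arrays of one line than the step between the lines did. The step was less even on other scales. Its SD was 0.39 in the table processed by the study's authors and after quantile normalization. It was 0.31 when arrays were scaled to 10 reference genes and 0.50 when scaled to *Gusb*. Each was still below the pooled SD within a line on the same scale. The study's list came from a paired test, which favours an even step, so the evenness was partly set by that choice. In the scanner's processed intensities, before any scaling, the spot read 2224, 2543 and 457 in fSOX2-Tg and 16463, 7899 and 2937 in fS248A-Tg.

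*Gata4*, which follows GATA6 in primitive endoderm, was also higher in fS248A-Tg cells, by less. Its level was 1.61, 1.39 and 0.86 on the fSOX2-Tg replicates and 3.03, 2.90 and 1.90 on the fS248A-Tg replicates. The lines did not overlap, but the gap was 0.29 log2 units, the smallest of the 3 genes. The means were 1.29 ± 0.39 and 2.61 ± 0.61 (SD, n = 3), a difference of 1.32 (limma SE 0.33) or 2.50-fold. Same-numbered arrays differed 2.67-fold, 2.84-fold and 2.06-fold, so the smallest step was on the slide that held replicate 3. The separation of the lines depended on the scaling for this gene. In the table processed by the study's authors, fSOX2-Tg replicate 1 read 9.99 and fS248A-Tg replicate 3 read 9.98 (log2), so that 1 array of each line overlapped, and a quantile normalization of the scanner values and a scaling to 10 reference genes also gave overlaps.

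*Gata1*, the erythroid factor, was lower in fS248A-Tg cells. Its level was 3.15, 2.37 and 3.30 on the fSOX2-Tg replicates and 0.59, 1.21 and 1.08 on the fS248A-Tg replicates. On this scale the lines were separated by 1.16 log2 units, the widest gap of the 3 genes. Scaled to *Gusb* the gap was 0.40, against 0.42 for *Gata6*, and the arrays numbered 2 then differed 1.32-fold. The means were 2.94 ± 0.50 and 0.96 ± 0.33 (SD, n = 3), a difference of -1.98 (limma SE 0.38) or 3.94-fold lower in fS248A-Tg. Same-numbered arrays differed 5.88-fold, 2.23-fold and 4.66-fold, with an SD of 0.73 on the log2 scale. The smallest step was between the arrays numbered 2, where fSOX2-Tg was lowest and fS248A-Tg highest for its line. Those are also the arrays that lay nearer to the other line over all probes, and the part this had in the *Gata1* values was not tested. Without fSOX2-Tg replicate 2 alone the difference was -2.26.

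**Figure D1:**
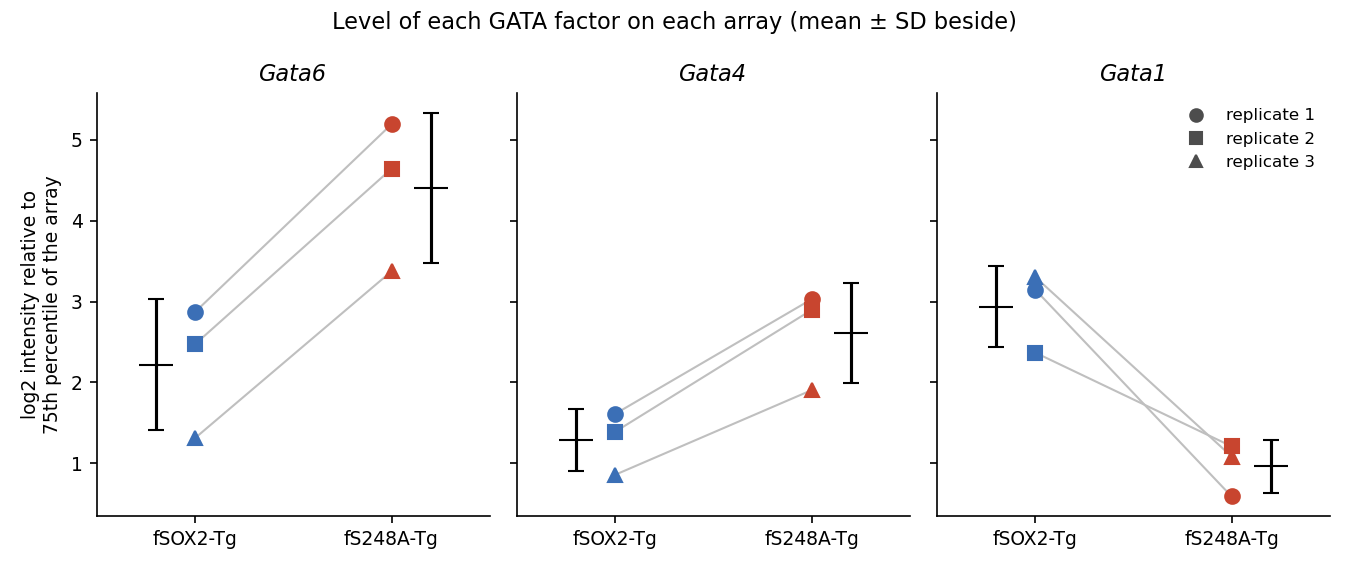
Level of *Gata6*, *Gata4* and *Gata1* on each of the 6 arrays (y axis, log2 level above the 75th percentile). Each point is 1 array, grey lines join arrays of the same replicate number, and the black bars beside the points are the mean and SD of 3 arrays. *Gata6* and *Gata4* step up from fSOX2-Tg to fS248A-Tg on lines that are near-parallel on this scale, and *Gata1* steps down on lines that cross. Heights are not comparable between panels, since each gene has its own probe.

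All of these values came from spots that the scanner software placed well above background on 6 of 6 arrays. The weakest was *Gata4* on fSOX2-Tg replicate 3, whose raw signal was 18 times its local background, and the strongest was *Gata6* on fS248A-Tg replicate 1, at 688 times. With 1 spot per probe there was no spread between spots of a gene on an array. The 2 endoderm factors were therefore measured over a wide range of brightness with no spot saturated or marked as an outlier.

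For background, 732 of 19779 probes tested were at least 1.5-fold higher in fS248A-Tg at an unadjusted p below 0.05 (3.70% of probes, limma), and 1105 were lower (5.59%). None was past a Benjamini-Hochberg adjusted p of 0.05 with limma (0%), and 1 was when the paired test of the study's methods was run on the authors' table. All 3 genes were among the probes called by fold and unadjusted p. Their choice made this likely, since the study's list used the same thresholds with a paired test on these arrays. Over 19766 probes, all fS248A-Tg arrays lay above all fSOX2-Tg arrays for 4.65% and below them for 7.97%. The 3 genes were among these on this scale.

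The differences moved with the scaling, since the median log2 difference of all tested probes was -0.10 under the 75th percentile, 0.17 when arrays were centred on their medians and 0.27 when they were scaled to *Gusb*. Relative to that median, over 7 scalings, *Gata6* differed by 2.14 to 2.28, *Gata4* by 1.24 to 1.42 and *Gata1* by -2.05 to -1.66. The signs were the same under each. A scaling by a constant per array drops out of this comparison. The 75th percentile, the array median, 10 reference genes and *Gusb* therefore had to give identical values. Only quantile normalization, the authors' table and the normexp background correction could give others. Common reference genes moved less than the GATA factors on the 75th percentile scale: *Actb*, which encodes beta-actin, differed by -0.25 log2 units, *Gapdh*, a glycolytic enzyme gene, by -0.16, and *Tbp*, which encodes the TATA-binding protein, by 0.04. Among 10 such genes the differences ran from -0.37 for *Gusb* to 0.50 for the chaperone gene *Hsp90ab1*.

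A scaling by a constant per array shifts every probe of that array alike. The genes were therefore also compared with each other on the same array, where such a scaling drops out. Quantile normalization, which the authors' table matches, shifts probes by their intensity and does not drop out. The log2 difference *Gata6* minus *Gata1*, set to a mean of 0 over the fSOX2-Tg arrays, was 0.45, 0.83 and -1.27 on the fSOX2-Tg replicates and 5.32, 4.15 and 3.01 on the fS248A-Tg replicates. The lines did not overlap, and the mean shift was 4.16 log2 units, or 17.9-fold. For *Gata4* minus *Gata1*, the same quantity was 0.12, 0.67 and -0.79 in fSOX2-Tg and 4.09, 3.34 and 2.47 in fS248A-Tg, a mean shift of 3.30 or 9.85-fold. Each gene alone already separated the lines on this scale, *Gata1* in the other direction, so both of these differences had to separate them too. They also do not show which gene of a pair moved. In the values of each gene given above, the endoderm factors rose and the erythroid factor fell on each same-numbered pair of arrays.

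The endoderm factors did not move by the same amount. *Gata6* minus *Gata4*, set to a mean of 0 over fSOX2-Tg, was 0.33, 0.15 and -0.48 on the fSOX2-Tg replicates and 1.23, 0.81 and 0.54 on the fS248A-Tg replicates. *Gata6* rose beyond *Gata4* by 0.90, 0.66 and 1.02 log2 units between arrays of the same number, 1.82-fold on average. The lines were separated here as well, with the lowest fS248A-Tg array at 0.54 and the highest fSOX2-Tg array at 0.33.

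**Figure D2:**
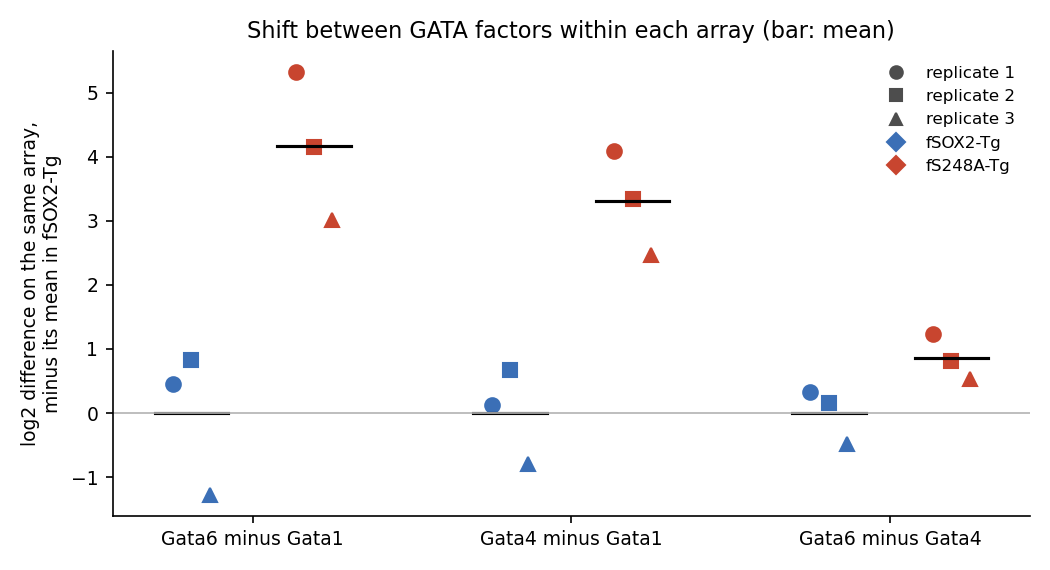
Log2 difference between 2 GATA probes on the same array, minus the mean of that difference over the fSOX2-Tg arrays (y axis), for 3 gene pairs (x axis). Each point is 1 array, the marker shape gives the replicate number and bars are means of 3 arrays. The mean shift in fS248A-Tg was 4.16 for *Gata6* minus *Gata1*, 3.30 for *Gata4* minus *Gata1* and 0.86 for *Gata6* minus *Gata4*.

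*Gata4* and *Gata6* also shared how they varied within each line. The study's list came from a paired test, which favours genes whose same-numbered arrays deviate alike in both lines. The likeness between the lines was therefore partly set by the choice of genes. *Gata6* deviated from its line mean by 0.65, 0.25 and -0.91 on fSOX2-Tg replicates 1, 2 and 3 and by 0.79, 0.24 and -1.03 in fS248A-Tg. *Gata4* deviated by 0.32, 0.10 and -0.43 in fSOX2-Tg and by 0.42, 0.29 and -0.71 in fS248A-Tg. For both genes the order of the 3 arrays was the same in each line, and the array numbered 3, on the other slide, was the lowest. *Gata1* deviated by 0.21, -0.57 and 0.36 in fSOX2-Tg and by -0.37, 0.25 and 0.12 in fS248A-Tg, an order of its own in each line. Replicate 3 was lowest in both lines for 14.2% of 19766 tested probes, so a lowest replicate 3 alone was not rare. That share is over all tested probes, which were not chosen by a paired test. Slide and replicate number cannot be told apart here, because slide 2 held replicate 3 only. Within slide 1 the mean difference between lines was 2.24 for *Gata6*, 1.46 for *Gata4* and -1.86 for *Gata1*, and on slide 2 it was 2.06, 1.05 and -2.22, respectively.

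The genes around GATA4 and GATA6 in endoderm were then read from a list of 44 primitive and visceral endoderm genes, of which 14 were named in the authors' table and 10 were tested. All 14 names came from the study's own list of changed genes on these arrays, so neither the share called nor the share in one direction is independent evidence. Of the 10 genes, 8 had a higher mean in fS248A-Tg, 7 of them called, and 2 had a lower mean, 1 of them called; the background was 3.70% higher and 5.59% lower. The median difference was 1.12 log2 units, against -0.10 for all tested probes. The lines did not overlap for 6 of the genes with a higher mean and for 1 with a lower mean, beside 4.65% of tested probes above and 7.97% below.

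*Col4a1*, a type IV collagen chain of basement membrane, read 1.12, 0.93 and 0.24 in fSOX2-Tg and 2.94, 2.51 and 2.44 in fS248A-Tg, a difference of 1.86 (limma SE 0.33). *Dab2*, an endocytic adaptor of visceral and parietal endoderm, differed by 1.61 and was well above background on 1 of 3 fSOX2-Tg arrays. *Amn*, which encodes a partner of the receptor cubilin, differed by 1.29 and was above background on 1 of 3 fSOX2-Tg arrays. The forkhead gene *Foxq1* differed by 1.54 and *P4ha2*, which encodes a collagen prolyl hydroxylase subunit, by 1.17. The tight-junction gene *Cldn6* differed by 0.87. The keratin gene *Krt18* differed by 1.07, and its lines overlapped, with fSOX2-Tg replicate 3 at 2.04 and fS248A-Tg replicate 1 at 1.92.

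Other endoderm genes were not called or went the other way. The proprotein convertase gene *Pcsk6* (0.79) had a higher mean in fS248A-Tg but did not pass, while under quantile normalization (1.20) and in the authors' table (1.19) it did. *Apoe*, an apolipoprotein gene that many other cells express, had a lower mean (-0.77) and did not pass. *Fabp1*, a fatty acid binding protein gene of liver, gut and visceral endoderm, was lower and called, at -2.10, -1.45 and -0.95 in fSOX2-Tg against -3.81, -2.14 and -2.52 in fS248A-Tg. Another 4 genes were named but too dim to be tested, and 3 of these had a lower measured mean in fS248A-Tg. The albumin gene *Alb* read -3.35, -3.21 and -2.49 in fSOX2-Tg and -5.85, -5.01 and -4.58 in fS248A-Tg, and was well above background on 2 fSOX2-Tg arrays and no fS248A-Tg array. The apolipoprotein gene *Apob* read -3.59, -2.85 and -3.37 in fSOX2-Tg and -5.59, -5.01 and -5.73 in fS248A-Tg, and was above background on 1 fSOX2-Tg array alone. For both the measured values did not overlap between lines. The cadherin gene *Cdh16* had a lower and the glucose transporter gene *Slc2a2* a higher measured mean in fS248A-Tg, with overlapping lines. Over all 14 named genes, tested or not, 9 had a higher and 5 a lower measured mean in fS248A-Tg.

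Like *Gata4* and *Gata6*, 5 of the 8 tested endoderm genes with a higher mean were lowest on both arrays numbered 3, beside 14.2% of all tested probes. These were *Col4a1*, *Dab2*, *Foxq1*, *P4ha2* and *Pcsk6*. Of them *Col4a1* alone followed *Gata4* and *Gata6* in the order of all 3 arrays in both lines. All 5 were named through the list that the paired test chose, so a like order in both lines was partly set by that choice. The keratin gene *Krt18* and the claudin gene *Cldn6* were instead highest on the arrays numbered 3 in both lines. Neither of the tested genes with a lower mean was lowest on both arrays numbered 3. Of these, *Apoe* was highest there in both lines, though in fS248A-Tg only at 8.25 against 8.24 on the next array. Outside the endoderm list, 2 of 3 tested erythroid and megakaryocyte genes (*Car1* and *Selp*) and the feeder marker *Twist1* were also lowest on both arrays numbered 3. The endoderm genes were therefore not one block across the arrays.

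**Figure D3:**
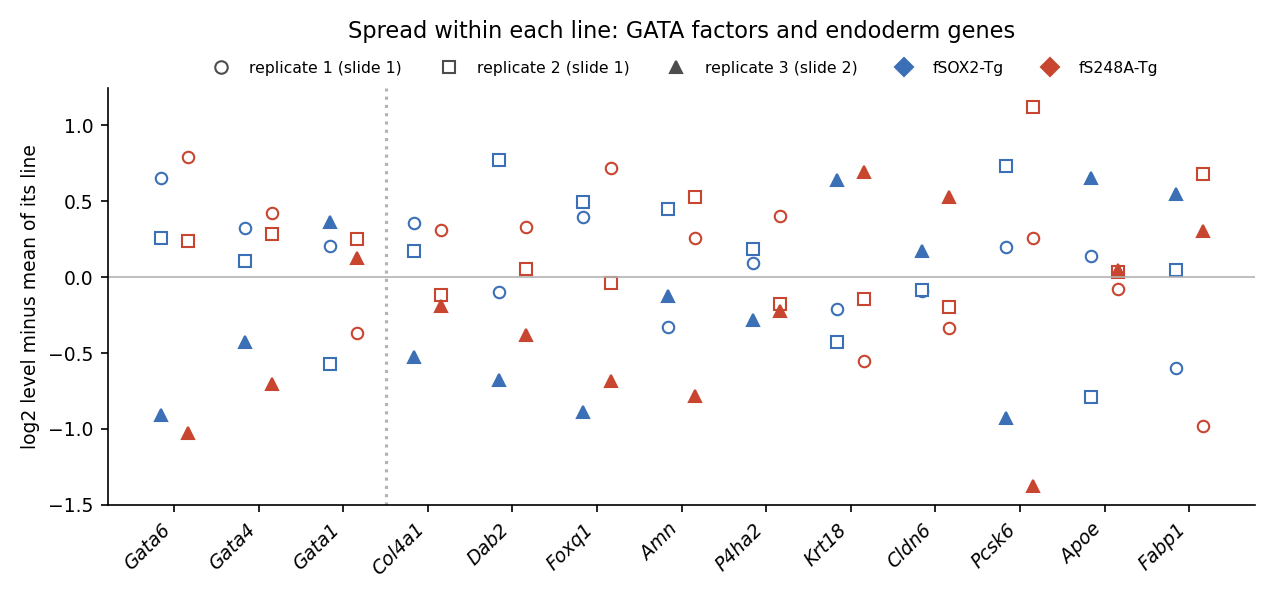
Log2 level of each gene on each array minus the mean of its line (y axis), for the 3 GATA factors and the 10 tested endoderm genes, ordered by their difference between lines (x axis). Filled triangles are the arrays numbered 3, on slide 2, and open symbols are replicates 1 and 2, on slide 1. The filled triangles are lowest in both lines for *Gata6*, *Gata4*, *Col4a1*, *Dab2*, *Foxq1*, *P4ha2* and *Pcsk6*. They are highest for *Krt18*, *Cldn6* and *Apoe*, the last by little in fS248A-Tg.

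On the GATA1 side, 3 of 33 erythroid and megakaryocyte genes were tested. All 3 were named through the study's own list of changed genes. Neither their calls nor their median therefore stands for the genes that GATA1 drives. *Car1* passed the background filter only through fSOX2-Tg and *Spna1* only through fS248A-Tg, in each case the line with the higher mean. *Car1*, an erythroid carbonic anhydrase gene, read -2.17, -1.57 and -2.38 in fSOX2-Tg and -2.79, -2.24 and -3.97 in fS248A-Tg, a difference of -0.96. It was called, as were 5.59% of all tested probes in that direction, although the lines overlapped. The adhesion receptor gene *Selp* (0.39) and the erythroid spectrin gene *Spna1* (0.29) had higher means in fS248A-Tg and did not pass. Under quantile normalization they differed by 0.69 and 0.60, and *Selp* then passed. The median of the 3 genes was 0.29, against -1.98 for *Gata1* itself. The call of *Car1* was lost without the replicate block, under quantile normalization (-0.60) and in the authors' table (-0.61). Transferrin receptor, *Tfrc*, which erythroid precursors and other dividing cells use to take up iron, was read by a probe outside the authors' table and differed by -0.24.

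Of 18 GATA partner genes, 4 were named and 1 was tested. All 4 names came from the study's list of changed genes, and 3.70% of all tested probes were called higher. *Med1*, a Mediator subunit gene, whose product binds GATA1, read -1.26, -1.38 and -0.97 in fSOX2-Tg and 0.58, -0.64 and 0.63 in fS248A-Tg, a difference of 1.39 that was called. The ETS factor genes *Fli1* and *Sfpi1* (PU.1) and the LIM-domain gene *Lmo1* were too dim to be tested, with *Fli1* and *Sfpi1* above background on no fSOX2-Tg array. Markers of other cells that a culture could hold were thinly covered, and those named came from the same list. The feeder marker *Twist1*, a mesenchymal transcription factor gene, was the 1 of 8 named and differed by -0.64 (not called, but called under quantile normalization). The trophoblast marker *Tead4* was the 1 of 7 named and differed by 0.97 (called, above background on 1 of 3 fSOX2-Tg arrays), and none of 4 blood markers was named. Their part in the GATA values was not tested.

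Genes whose profile over the 6 arrays was most like each factor were found by the root mean square (RMS) log2 difference after each gene was centred on its own mean, among 591 named and tested probes. The profile includes the line difference that chose the factors and most of the named genes, so likeness is a description. For *Gata6* the nearest were *Foxq1* (RMS 0.40), *Rrp12* (0.41), *Krt23* (0.45), *Col4a1* (0.49) and *Glipr1* (0.51). The forkhead, keratin and collagen genes among these belong to epithelia or basement membrane, and *Rrp12* functions in ribosome assembly. *Gata4* and *Gata6* lay 0.53 apart: 7 of all tested probes were nearer to *Gata6* than *Gata4* was, and 194 were nearer to *Gata4* than *Gata6* was.

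For *Gata4* the nearest named genes were the zinc-finger gene *Zfp449* (0.26), the hydrolase gene *Abhd2* (0.26), the peroxisome gene *Pex19* (0.28), the lipid phosphatase gene *Lpin1* (0.30) and *P4ha2* (0.31). For *Gata1* the nearest was *Nnmt*, which encodes nicotinamide N-methyltransferase, at an RMS of 0.086. No other of 19765 tested probes was nearer to *Gata1*. *Nnmt* read 1.09, 0.43 and 1.30 above its own mean in fSOX2-Tg and -1.21, -0.68 and -0.93 in fS248A-Tg, beside 1.20, 0.42 and 1.35 and then -1.36, -0.74 and -0.87 for *Gata1*. The next were *Olfr1423* (0.30), *Aqp6* (0.31), *BC021785* (0.33) and *Praf2* (0.35).

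**Figure D4:**
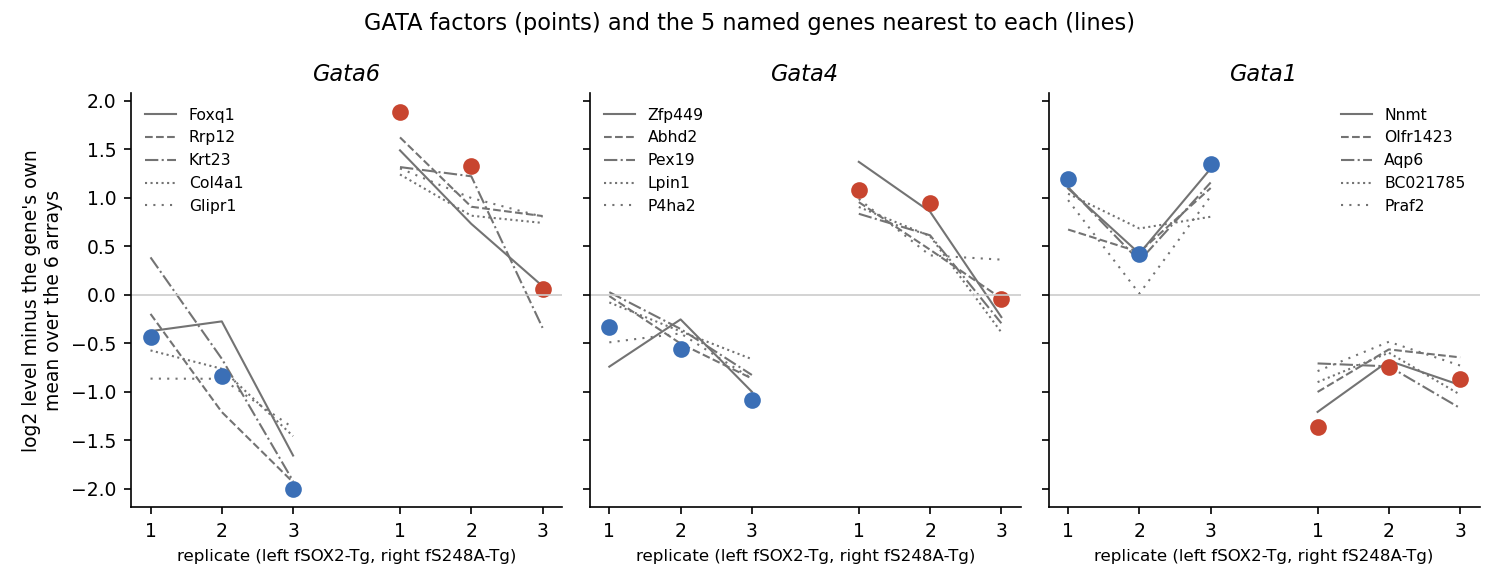
Log2 level minus the gene's own mean over the 6 arrays (y axis) by replicate (x axis), for *Gata6*, *Gata4* and *Gata1* (points, blue for fSOX2-Tg and red for fS248A-Tg) and the 5 named genes nearest to each (grey lines). *Nnmt* follows *Gata1* to an RMS of 0.086, and *Foxq1* follows *Gata6* to 0.40.

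The opposed movement was measured the same way with one profile turned in sign. *Gata6* lay 0.64 from the turned *Gata1* profile, with 357 of 19765 tested probes nearer to that profile, and *Gata4* lay 0.54 from it, with 97 nearer. In the other direction, 9 probes were nearer to the turned *Gata6* profile than *Gata1* was, and 559 were nearer to the turned *Gata4* profile. Named genes nearest to a turned *Gata1* were *Glipr1* (0.25), *Daxx* (0.29), which encodes a histone chaperone, and the endoderm adaptor gene *Dab2* (0.29). Those nearest to a turned *Gata6* were *Epsti1* (0.49), *Scara5* (0.59) and *Gm2799* (0.60), and to a turned *Gata4* *Usp27x* (0.25), *Zfhx2* (0.26) and *Pnpla1* (0.26). *Gata1* was thus opposed to the endoderm factors between the lines, while within the lines its arrays followed another order.

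Under 19 other ways of processing or leaving out arrays, each factor kept its sign. Some of these could not move the difference. Each block held both lines alike, so changing or dropping the block left it as it was. Keeping outlier spots did too, since no spot of a factor was an outlier. *Gata1* ranged from -2.39 without replicate 2 to -1.61 when arrays were scaled to *Gusb*. *Gata4* ranged from 1.11 without fSOX2-Tg replicate 3 to 1.69 under *Gusb*. *Gata6* ranged from 1.73 without fSOX2-Tg replicate 3 to 2.70 without fS248A-Tg replicate 3, the widest range and set by which of the low arrays numbered 3 was left out.

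**Figure D5:**
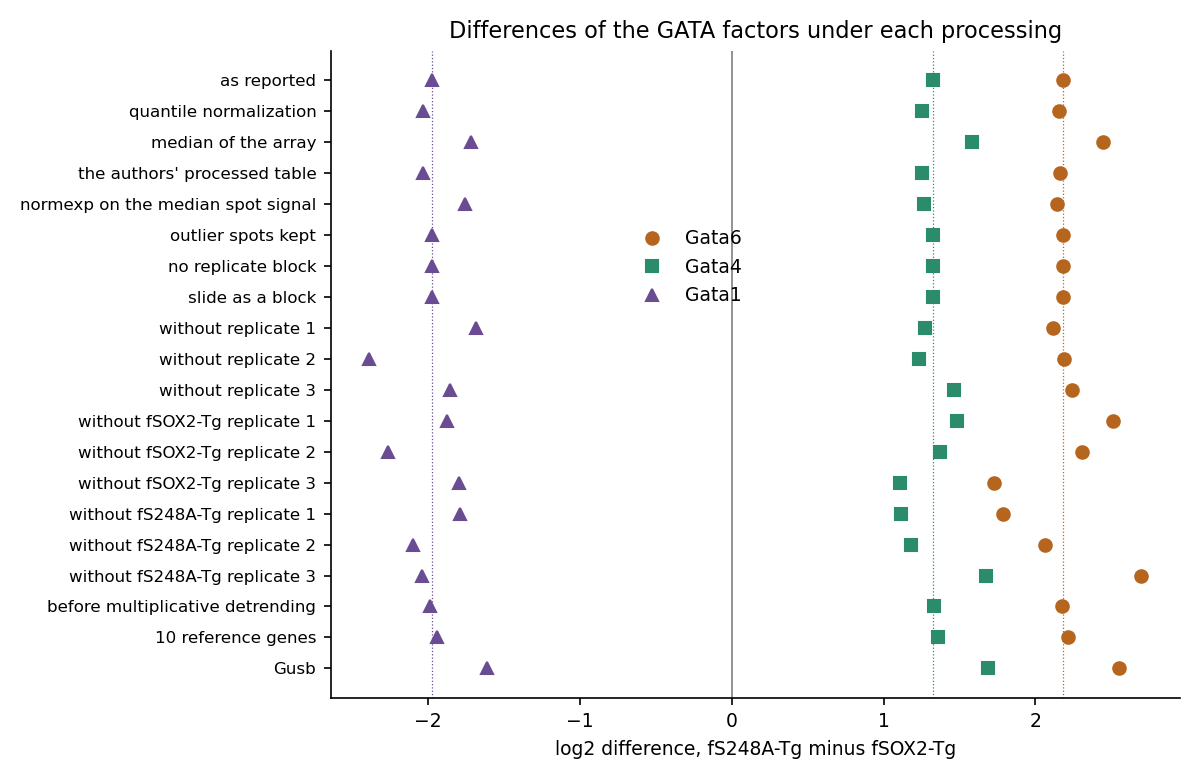
Log2 difference between fS248A-Tg and fSOX2-Tg (x axis) for *Gata6*, *Gata4* and *Gata1* as reported and under each of 19 alternatives (y axis). Dotted lines mark the values as reported (2.18, 1.32 and -1.98), and no symbol crosses 0.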

How the data were processed

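Total RNA of 3 biological replicates per line was depleted of rRNA, labelled with Cy3 by random priming and hybridised to Agilent one-colour arrays, per the labels. The deposited scanner files hold spot intensity values from Feature Extraction 11.0.1.1, and the authors' processed table holds log2 values of 23949 probes, which match a quantile normalization to within an SD of 0.033. Its column medians lay between 7.30 and 7.47. Multiplicative detrending had been applied to fSOX2-Tg replicate 1 alone. It changed the signal by more than 1 per mille at 98.5% of the spots marked positive and significant on that array.

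The processed signal was put on a log2 scale relative to each array's 75th percentile, outlier spots were left out, and spots of a probe were averaged. The fit covered the 19779 probes of the table that exceeded background on each array of one line or of both. It was made in limma 3.58.1 (R 4.3.3) with replicate number as a block, and was tested on simulated data. The block was used because the legend of the study's volcano plot names a paired t-test. A call is at least 1.5-fold with an unadjusted p below 0.05. The array number limits the precision. The limma p-values set the difference against the spread of these samples left after the replicate block, moderated over all tested probes. For *Gata6* the SE was 0.32 with the block and 0.54 without it.

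Names were given to 741 probes of the table, through the study's gene list (664 entries, each matching 1 probe by its statistics to within 0.01%) or a RefSeq accession (116 of 123). The statistics served to name probes only. Named genes were the 3 factors, the listed genes that could be named, and the 5 nearest profiles and 3 nearest sign-turned profiles per factor. The factors and lists were chosen with earlier results of these data known. A planned comparison of GATA protein sequences and promoters was not run. Some listed genes are not reported here and were left out of the list counts and profiles.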

Additional observations from a re-analysis of the deposited data

How the results depend on the processing

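The line differences of *Gata1*, *Gata4* and *Gata6* kept their sign under all 19 alternatives run for each, and moved by less than the pooled SD of arrays within a line. With no replicate block, slide as a block or outlier spots kept, the differences could not change, so those settings do not bear on stability. Leaving out replicates gave -2.39 to -1.69 for *Gata1*, 1.11 to 1.68 for *Gata4* and 1.73 to 2.70 for *Gata6*. The normalization by normexp used the median spot signal.

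The replicate block followed the paired t-test named in the study's figure legend. Over all probes, deviations of same-numbered arrays correlated at 0.23, -0.24 and -0.0034, so they did not go together for every number, although those of *Gata4* and *Gata6* did. With no replicate block, 831 probes were higher and 1132 lower, in place of 732 and 1105, and with slide as a block 796 and 1197. Called erythroid and megakaryocyte genes went from 1 to 0 with no replicate block. Under quantile normalization and in the authors' table the count was 1 again, but with *Selp* in place of *Car1*, called feeder markers went from 0 to 1, and called endoderm genes from 8 to 9 with *Pcsk6*.

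The number of probes called over the table was the least stable result. Median scaling gave 1596 higher and 510 lower, quantile normalization 959 and 812, and an intensity trend, added after seeing the data, 869 and 1042. The paired t-test gave 163 and 391, and the same test on the authors' values called 320 higher and 344 lower, with 1 past adjustment. Leaving out a replicate gave 368 to 2553 higher, 422 to 3362 lower and 0 to 53 past adjustment, the last without replicate 3. Scaling to 10 reference genes or to *Gusb*, and the signal before detrending, were also chosen after seeing the data. The causes were not tested. Names limited the endoderm list to 10 of 44 genes and the erythroid list to 3 of 33.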
